A study of Mus musculus with 24 samples.

Results

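Fatty acid uptake and activation were examined through 8 genes, Lpl, Gpihbp1, Angptl4, Cd36, Fabp4, Fabp5, Slc27a1 and Acsl1. They were chosen by symbol, and all 8 were found among the 37310 genes of the expression tables. RNA had been sequenced from stromal vascular cells, the mixed cells of fat that hold the adipocyte precursors. They came from the inguinal white fat (WAT) or the interscapular brown fat (BAT) of C57BL/6 mice aged 6 weeks. All cells were driven to adipocytes in culture, with insulin, dexamethasone and 3-isobutyl-methylxanthine until day 4 and with insulin and T3 from then until day 8. EGCG (epigallocatechin gallate, a green tea catechin) or DMSO, the control, was in the medium. The 8 groups were WAT or BAT cells, control or EGCG, on day 4 or day 8, with 3 libraries in each and 24 in all. The labels give neither the dose of EGCG nor whether the replicates were separate cell isolations, so p-values measure the spread between these libraries, which may be technical.

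Lipoprotein lipase (Lpl) frees fatty acids from the triglyceride of circulating lipoproteins. Gpihbp1 carries the enzyme to the capillary wall and Angptl4 inactivates it. Cd36 and Slc27a1 (FATP1) take fatty acids into the cell, Fabp4 and Fabp5 bind them in the cytosol, and Acsl1 joins them to coenzyme A, after which they can be stored or oxidised. Fat cells make all of these but Gpihbp1, which is known as a product of capillary endothelial cells. Lpl, Cd36, Fabp4 and Fabp5 are also made by other cells, macrophages and endothelial cells among them.

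On the mouse build NCBIM37 (mm9), Lpl is at chr8:71404390-71431347 (plus strand), Slc27a1 at chr8:74092826-74110607 (plus) and Acsl1 at chr8:47556395-47621405 (plus). Gpihbp1 is at chr15:75427088-75428642 (plus), Angptl4 at chr17:33910695-33918520 (minus) and Cd36 at chr5:17287508-17394777 (minus). The binding protein genes are neighbours on chromosome 3, with Fabp5 at chr3:10012548-10016607 (plus) and Fabp4 at chr3:10204347-10208576 (minus), 187740 bases further on. All are protein-coding, and none overlaps another annotated gene.

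RefSeq promoter sequences (build GRCm38.p6) matched 3 of the 8 genes, Cd36, Slc27a1 and Acsl1, with 6 start sites. The others are Lpl, Gpihbp1, Angptl4, Fabp4 and Fabp5. The 250 bases before the start of Cd36 and before the first listed start of Acsl1 are shown. These genes fell at least 2.45-fold with EGCG in every comparison. Slc27a1, whose windows are not shown, also fell in every comparison, by at least 5.38-fold. The Cd36 sequence is chr5:17835897-17836146 on the minus strand and the Acsl1 sequence is chr8:46470787-46471036 on the plus strand. Capitals mark the nuclear receptor half-site (AGGTCA, or TGACCT on the other strand) and the CCAAT box (CCAAT, or ATTGG on the other strand).
Cd36: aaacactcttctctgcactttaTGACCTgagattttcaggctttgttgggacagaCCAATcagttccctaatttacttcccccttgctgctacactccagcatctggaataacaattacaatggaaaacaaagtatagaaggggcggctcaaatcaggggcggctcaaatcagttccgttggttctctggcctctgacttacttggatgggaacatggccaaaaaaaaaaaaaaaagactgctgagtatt
Acsl1: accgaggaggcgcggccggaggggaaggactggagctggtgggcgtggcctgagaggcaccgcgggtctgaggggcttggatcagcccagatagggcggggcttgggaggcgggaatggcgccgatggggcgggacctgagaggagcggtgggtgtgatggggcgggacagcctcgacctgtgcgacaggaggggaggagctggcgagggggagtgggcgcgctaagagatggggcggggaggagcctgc
The half-site was present in the Cd36 window, beginning 228 bases before the start, and in 14.0% of the 32851 promoter windows of this length. A CCAAT box, found in 33.8% of them, began 195 bases before the Cd36 start. The Acsl1 window shown held neither, while the window before its other listed start held 2 CCAAT boxes, 172 and 49 bases before that start. The Slc27a1 windows held no half-site. Before its first and last listed starts they held a CCAAT box, 188 and 128 bases before the start respectively. The direct repeat AGGTCANAGGTCA (TGACCTNTGACCT on the other strand), which PPAR and RXR bind, was found in 0.0335% of the windows and in none of those of the 3 genes. The C/EBP motif TTGCNNAA (TTNNGCAA) and the TATA box (TATAAA or TTTATA) were in 9.56% and 12.4% of the windows and in none of theirs. A match describes letters, not a bound site.

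Expression is given as FPKM, reads divided by transcript length and by the library's reads on genes. Replicates 1 and 2 stand in 1 table and had 39452696 to 52893848 reads on genes, and replicate 3 stands in another, made separately, with 16392420 to 41675643. Tests therefore used replicates 1 and 2 (limma on log2(FPKM + 1), 14095 genes, called at an adjusted p under 0.05), and replicate 3 served for direction and level. Replicate 3 of WAT day 8 EGCG stood apart, with 61.0% of its reads on 5 genes against 3.64 to 10.5% in the other libraries, which lowers the FPKM of all its other genes. The depot markers Hoxc10 and Zic1 followed the labels. Hoxc10 was at 5.62 to 12.5 FPKM in WAT cells and at no more than 0.121 in BAT cells. Zic1 went the other way, at 3.57 to 11.1 FPKM in BAT cells and at most 0.163 in WAT cells. In control day 4 and 8 and EGCG day 4 and 8, 1, 4, 2 and 2 of 4 brown markers were called higher in BAT. Over all genes 41.4, 31.6, 32.9 and 24.4% were. Of 4 white markers 4, 4, 3 and 3 were called lower in BAT, against 14.4, 22.0, 15.8 and 14.0% of all genes. Ucp1, the defining brown gene, was at 4.20 to 6.97 FPKM in BAT day 8 control cells, and was listed at 0 in all 3 libraries of BAT day 8 EGCG. Reads on the 8 genes made up 0.889 to 1.17% of all reads in control libraries. Under EGCG the share was 0.294 to 0.365% in WAT and 0.242 to 0.263% in BAT on day 4. On day 8 it was 0.231, 0.253 and 0.0821% in WAT (replicates 1 to 3) and 0.0894 to 0.0975% in BAT.

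**Figure D1:**
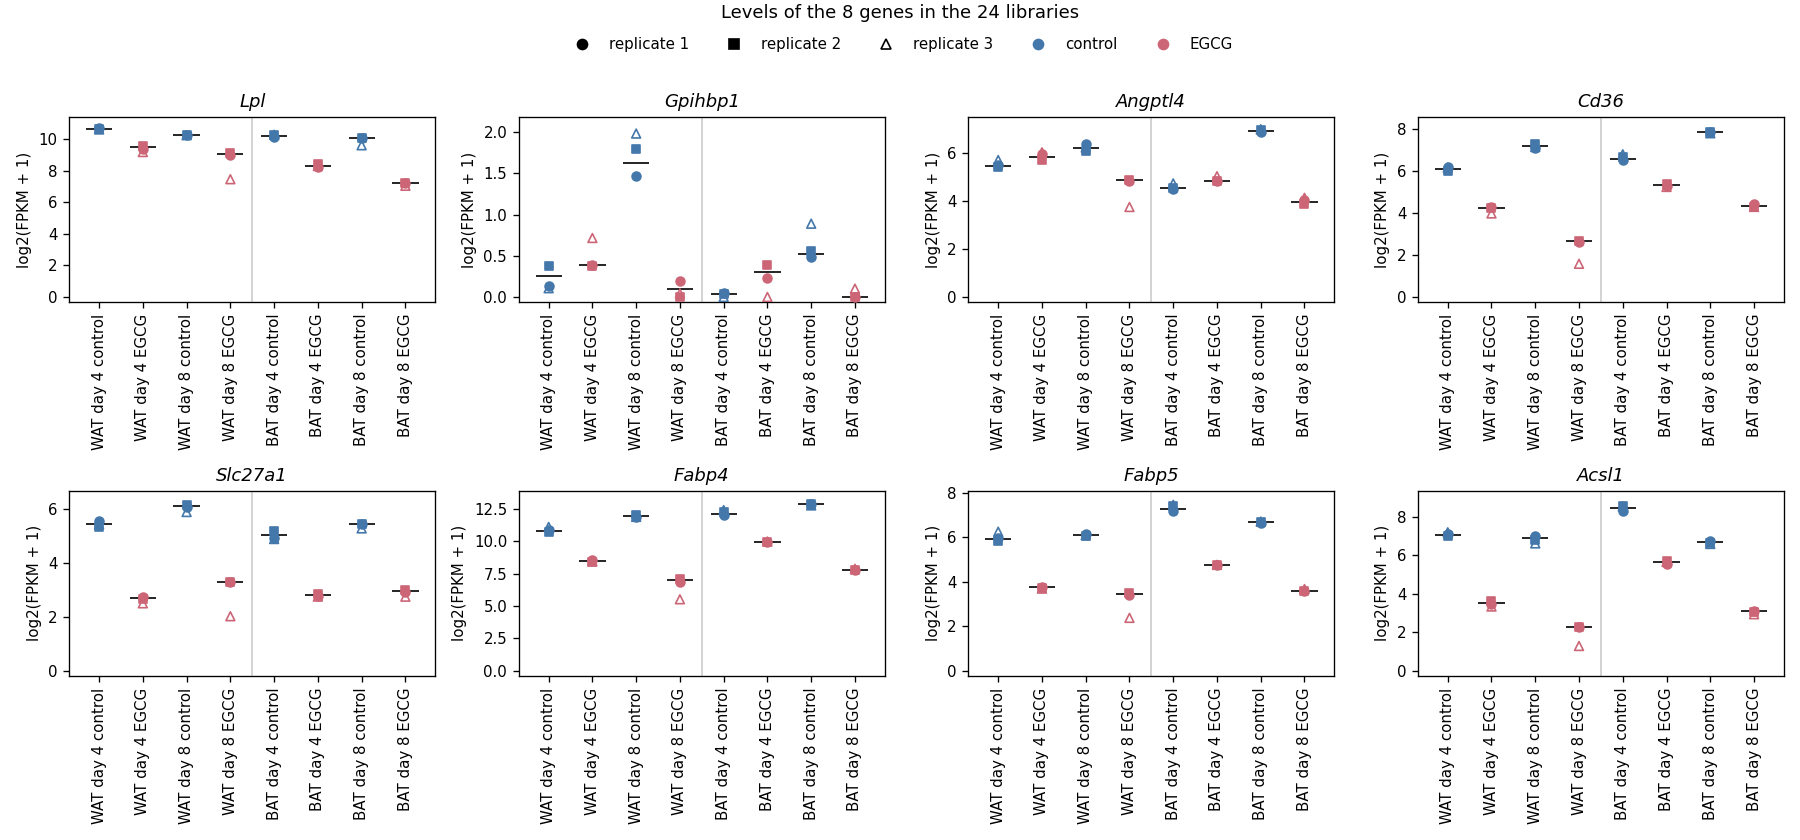
Level of each gene in the 24 libraries as log2(FPKM + 1), by depot, day and treatment. Filled points are replicates 1 and 2, open triangles replicate 3 and bars the mean of replicates 1 and 2. EGCG libraries lie below their controls in all 4 depot and day pairs for Lpl, Cd36, Slc27a1, Fabp4, Fabp5 and Acsl1.

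With EGCG, 6 of the 8 genes fell in both depots on both days: Lpl, Cd36, Slc27a1, Fabp4, Fabp5 and Acsl1. Angptl4 rose slightly on day 4 and fell on day 8, and Gpihbp1 was called only on day 8, when it fell. On day 4, 6 genes were called lower and 1 higher in each depot, against 19.3% of all tested genes called lower and 34.4% higher in WAT, and 20.6% and 27.9% in BAT. On day 8 all 8 were called lower in each depot, against 18.9% of genes lower and 44.7% higher in WAT, and 26.1% and 46.5% in BAT. Gpihbp1 passed the filter only through the WAT day 8 control libraries, where it was high, and without it the count was 7 of 7. In WAT the median log2 change of those 7 was -2.17 on day 4 and -2.84 on day 8, beside 0.09 and 0.17 over all genes. BAT medians were -2.19 and -3.08, beside 0.03 and 0.17. Every called gene moved in the same direction in replicate 3 in the 4 comparisons. The split over all genes depends on the scaling: with median-ratio scaling 3504 genes were called higher and 3945 lower in WAT day 4 (4853 and 2714 as deposited), 4036 and 3944 in WAT day 8 (6302 and 2660), and 5021 and 4815 in BAT day 8 (6549 and 3682). The all-gene median was 0.17 above 0 on day 8 in both depots, so the falls on day 8 were larger by that amount relative to the typical gene. In bulk RNA, fewer cells of a type and less RNA per cell cannot be told apart.

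**Figure D2:**
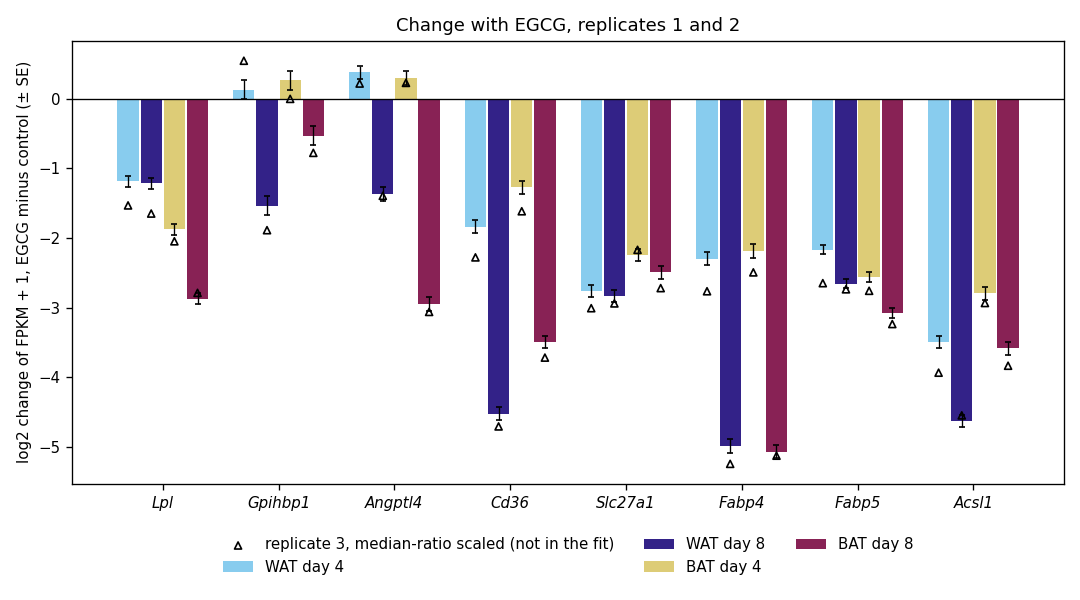
Change of each gene with EGCG on the log2(FPKM + 1) scale, EGCG minus control; bars are the fitted changes of replicates 1 and 2 and lines their SE, and triangles are replicate 3 after median-ratio scaling. Bars of 6 genes lie below 0 in all 4 comparisons, and those of Angptl4 lie above 0 on day 4 and below 0 on day 8.

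Markers of fat cells moved with these genes. All 10 adipocyte markers fell with EGCG in the 4 comparisons, and their summed level was 585 to 772 FPKM in WAT day 4 control against 73.6 to 75.1 with EGCG, and 2951 to 3266 in BAT day 8 control against 115 to 126. Of 9 tested endothelial markers, 8 were higher with EGCG in WAT and 7 in BAT on day 4, and 4 and 6 on day 8 with 1 lower in each. Their sum lay between 20.1 and 66.6 FPKM in all libraries. Of 9 tested macrophage markers, 8 were higher in WAT and 7 in BAT on day 4, and all 9 were lower in both on day 8. Their sum was 433 to 522 FPKM in BAT day 4 EGCG and 64.3 to 65.2 in BAT day 8 EGCG. No marker of either list was at 0 in both replicates 1 and 2 of a group. Of 6 stromal markers 2 were higher and 2 lower on day 4 in each depot, and on day 8 1 was higher in each and 4 were lower in WAT and 3 in BAT. Of 4 tested skeletal muscle markers 4 were higher in WAT on day 4, 2 on day 8, and 0 in BAT by limma, where 1 (Acta1 on day 4, 0.39 ± 0.17) had an unadjusted p under 0.05 (0.0428). In WAT day 4, WAT day 8, BAT day 4 and BAT day 8, 34.4, 44.7, 27.9 and 46.5% of all genes were called higher. Those called lower were 19.3, 18.9, 20.6 and 26.1%. Several marker counts lie near these shares, among them the endothelial and muscle counts higher in WAT day 8 and the stromal counts higher on day 4. The part of any of these cell types in the changes of the 8 genes was not tested.

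Lpl, the lipase itself, was among the most abundant transcripts of control cells. In WAT it was at 1636, 1574 and 1551 FPKM in day 4 control (replicates 1 to 3) against 663, 752 and 576 with EGCG, and at 1234, 1199 and 1206 in day 8 control against 500, 548 and 174. BAT cells were at 1097, 1213 and 1228 in day 4 control against 294, 335 and 311, and at 1087, 1070 and 775 in day 8 control against 149, 144 and 130. No EGCG library reached the lowest control library of its pair, and the value of 174 belongs to the library that stood apart (382 after median-ratio scaling). The change was -1.18 ± 0.08 (log2, SE, adjusted p = 2.72e-07) in WAT day 4 and -1.21 ± 0.08 (1.19e-07) in WAT day 8. In BAT it was -1.87 ± 0.08 (1.09e-08) on day 4 and -2.87 ± 0.08 (5.01e-11) on day 8, a fall of 7.36-fold. Lpl thus fell more in BAT than in WAT. The test of the depot difference gave -0.69 ± 0.11 on day 4 (adjusted p = 0.000966) and -1.66 ± 0.11 on day 8 (1.25e-06). The fall deepened from day 4 to day 8 in BAT (-0.997, adjusted p = 1.83e-05), whereas in WAT the days differed by -0.03 ± 0.11 (0.837).

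Gpihbp1, which anchors the lipase to the endothelium, was counted by only a few reads. WAT control libraries held 4, 10 and 1 reads on day 4 and 70, 79 and 39 on day 8, and EGCG libraries 11, 11 and 12 on day 4 and 6, 0 and 1 on day 8. BAT control libraries held 1, 1 and 0 reads on day 4 and 15, 15 and 12 on day 8, and EGCG libraries 6, 12 and 0 on day 4 and 0, 0 and 1 on day 8. The gene was clearly above the floor of 3 reads in day 8 control cells, most in WAT (1.77, 2.47 and 2.96 FPKM), and EGCG libraries of that day lay below them without overlap. The fitted difference on day 8 was -1.53 ± 0.13 (log2) in WAT, given as a description since the gene entered the tested set only through the high WAT day 8 control. In BAT the change was -0.53 ± 0.13 (adjusted p = 0.00358). The pseudocount of 1 understates the change at such levels, and in BAT the mean of replicates 1 and 2 was at least 5.82-fold lower with EGCG, taking the floor of 3 reads per library. On day 4 the differences of 0.13 ± 0.13 in WAT and 0.26 ± 0.13 in BAT did not pass the test (adjusted p = 0.432 and 0.123). With a pseudocount of 0.1 the BAT difference was 1.36 and was called (0.0383), on 6 and 12 reads against 1 and 1 in replicates 1 and 2, and replicate 3 had 0 reads in both groups.

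Angptl4, the secreted inhibitor of the lipase, was the only one of the 8 that was called higher with EGCG. On day 4, WAT cells were at 43.7, 41.0 and 50.8 FPKM in control and 60.7, 50.6 and 63.7 with EGCG, and BAT cells at 21.6, 22.0 and 25.4 against 26.9, 27.2 and 31.5. On day 8, WAT cells were at 81.1, 65.9 and 73.3 FPKM in control and 27.2, 28.5 and 12.4 with EGCG, and BAT cells at 116, 122 and 125 against 15.5, 13.7 and 16.4. The groups did not overlap on day 8. On day 4 they did not overlap in BAT, and in WAT the lowest EGCG library lay within the control range. The change was 0.38 ± 0.10 in WAT (log2, adjusted p = 0.00681) and 0.30 ± 0.10 in BAT (0.0271) on day 4, and -1.36 ± 0.10 (2.89e-07) and -2.95 ± 0.10 (2.18e-10) on day 8. The effect therefore differed between days by -1.74 ± 0.14 in WAT (2.75e-06) and -3.24 ± 0.14 in BAT (1.98e-08). The depots differed on day 8 (-1.58 ± 0.14, adjusted p = 7.90e-06), and on day 4 the difference was -0.08 ± 0.14 (0.692). The day 4 rises were small: in WAT the change was 0.25 (adjusted p = 0.0789) without replicate 1 of the EGCG group, and in BAT leaving out any 1 of the 4 libraries ended the call (adjusted p = 0.0780 to 0.1007).

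Cd36, the scavenger receptor that takes up fatty acids, fell in both depots, and much more on day 8. In WAT it was at 72.4, 62.2 and 70.7 FPKM in day 4 control against 18.4, 17.7 and 14.8 with EGCG, and at 134, 157 and 140 in day 8 control against 5.24, 5.44 and 1.99. In brown cells it stood at 89.4, 101 and 110 in day 4 control against 37.7, 40.0 and 36.8, and at 229, 231 and 221 in day 8 control against 20.7, 18.3 and 18.6. Control and EGCG libraries did not overlap in any pair, and the gap widened with time in both depots. The change was -1.84 ± 0.09 and -4.52 ± 0.09 (log2) in WAT on day 4 and day 8, and -1.27 ± 0.09 and -3.49 ± 0.09 in BAT, with adjusted p from 8.44e-12 to 4.82e-07. In mean FPKM the fall in WAT day 8 was 27.2-fold. The fall was smaller in BAT than in WAT, by 0.57 ± 0.13 on day 4 (adjusted p = 0.00722) and 1.03 ± 0.13 on day 8 (9.18e-05). It was deeper on day 8 than on day 4, by -2.69 ± 0.13 in WAT and -2.23 ± 0.13 in BAT.

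Slc27a1, a membrane transporter with acyl-CoA synthetase activity, fell in both depots on both days. In WAT it was at 46.8, 40.0 and 42.5 FPKM in day 4 control against 5.69, 5.40 and 4.68 with EGCG, and at 67.0, 70.9 and 58.7 in day 8 control against 8.82, 8.77 and 3.07. The BAT values were 29.2, 35.5 and 28.8 in day 4 control against 5.82, 6.21 and 5.76, and at 43.2, 43.0 and 38.1 in day 8 control against 6.60, 7.07 and 5.74. EGCG libraries stayed between 3.07 and 8.82 FPKM whatever the depot or day, while controls lay between 28.8 and 70.9. The change was -2.76 ± 0.09 and -2.84 ± 0.09 (log2) in WAT on day 4 and day 8, and -2.24 ± 0.09 and -2.49 ± 0.09 in BAT, with adjusted p from 3.06e-10 to 7.18e-09. The difference between days did not pass the test in WAT (-0.08 ± 0.12, adjusted p = 0.635) or BAT (-0.25 ± 0.12, 0.106). In BAT it was called with median-ratio scaling (-0.42, adjusted p = 0.0126), without replicate 2 of BAT day 4 control (-0.39, 0.0124) and in the fit of both tables without the library that stood apart (-0.30, 0.0107). The fall was smaller in BAT on day 4 (0.52 ± 0.12, adjusted p = 0.00978). The depot difference on day 8 (0.34 ± 0.12, 0.0466) was not called with the replicate number as a block (0.0557) or without any 1 library of the 4 groups (0.0538 to 0.137).

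Fabp4, the adipocyte fatty acid binding protein, had the highest level of the 8 in control cells on the per-length scale. In WAT it was at 1909, 1669 and 2214 FPKM in day 4 control against 382, 345 and 349 with EGCG, and at 3731, 4312 and 3806 in day 8 control against 117, 133 and 45.1. BAT libraries were at 4219, 4918 and 5456 in day 4 control against 993, 1003 and 1016, and at 7489, 7602 and 7034 in day 8 control against 225, 223 and 235. No EGCG library overlapped its controls, and the gap was wider on day 8. The change was -2.29 ± 0.10 and -4.99 ± 0.10 (log2) in WAT on day 4 and day 8, and -2.19 ± 0.10 and -5.07 ± 0.10 in BAT, the last a fall of 33.7-fold, with adjusted p from 5.07e-12 to 1.54e-08. The change was not shown to differ between depots, at 0.11 ± 0.14 on day 4 (adjusted p = 0.613) and -0.08 ± 0.14 on day 8 (0.699). The difference on day 8 was 0.62 (adjusted p = 0.0457) after quantile normalization, which turns its direction.

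Fabp5, the epidermal-type binding protein, was at lower FPKM and fell less than Fabp4 on day 8. In WAT it was at 62.4, 56.7 and 75.2 FPKM in day 4 control against 12.7, 12.2 and 11.9 with EGCG, and at 70.2, 65.5 and 67.4 in day 8 control against 9.58, 10.3 and 4.20. In BAT it was at 145, 168 and 175 in day 4 control against 25.6, 25.7 and 26.1, and at 100.2, 101 and 104 in day 8 control against 11.0, 11.1 and 11.8. All EGCG libraries lay below all control libraries, those of the other depot and day included. The change was -2.17 ± 0.07 and -2.66 ± 0.07 (log2) in WAT on day 4 and day 8, and -2.56 ± 0.07 and -3.08 ± 0.07 in BAT, with adjusted p from 1.27e-11 to 1.06e-09. Fabp5 fell more in BAT, with differences of -0.39 ± 0.10 on day 4 (adjusted p = 0.0113) and -0.42 ± 0.10 on day 8 (0.00505). Its FPKM rests on a length of 3238 bases, that of a 2-exon transcript, while the annotated 5-exon transcript has 651 bases. With that length its FPKM would be 4.97 times as high, a factor that does not touch changes between groups.

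Acsl1, the main acyl-CoA synthetase of fat cells, showed the deepest fall of the 8 on day 4. In WAT it was at 136, 125 and 144 FPKM in day 4 control against 10.2, 11.2 and 9.09 with EGCG, and at 125, 110 and 96.8 in day 8 control against 3.75, 3.86 and 1.44. In BAT it was at 317, 372 and 367 in day 4 control against 45.8, 51.5 and 49.3, and at 105, 97.0 and 94.9 in day 8 control against 7.66, 7.30 and 6.64. Control and EGCG libraries were far apart in every pair, and BAT day 4 control cells stood above all other groups. The change was -3.50 ± 0.09 and -4.63 ± 0.09 (log2) in WAT on day 4 and day 8, and -2.80 ± 0.09 and -3.58 ± 0.09 in BAT, with adjusted p from 5.94e-12 to 2.90e-09. In mean FPKM the falls in WAT were 12.3-fold and 31.0-fold. The fall was smaller in BAT by 0.70 ± 0.13 on day 4 (adjusted p = 0.00192) and by 1.04 ± 0.13 on day 8 (6.97e-05). It deepened from day 4 to day 8 in both (-1.13 ± 0.13 in WAT and -0.79 ± 0.13 in BAT).

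By the test of the difference itself, the 8 genes split by depot. On day 8, Lpl, Angptl4 and Fabp5 fell more in BAT, and Cd36, Slc27a1 and Acsl1 fell more in WAT, against 19.7% and 19.4% of all genes called in these directions. Gpihbp1 had a difference of 1.01 ± 0.19 on this scale, but with 0 reads in replicates 1 and 2 of BAT day 8 EGCG its fold there is unknown, and with a pseudocount of 0.1 the call was lost (adjusted p = 0.145). In a limma fit of all 24 libraries with the replicate number as a block, 5 of the 8 were called on day 8 against 7, without Fabp5 and Slc27a1. On day 4, Lpl and Fabp5 fell more in BAT and Cd36, Slc27a1 and Acsl1 more in WAT, against 16.1% and 12.0%. In the same fit 0 of the 8 were called on day 4 (2 at an unadjusted p under 0.05), and 5 were when the library that stood apart was left out of it. The effect was lower on day 8 than on day 4 for 6 of 8 genes in WAT and 7 of 8 in BAT, against 19.7% of genes lower and 29.7% higher in WAT and 20.6% and 34.7% in BAT, with Lpl and Slc27a1 not called in WAT and Slc27a1 not called in BAT. Without Gpihbp1 the counts were 5 of 7 and 6 of 7. In the fit of all 24 libraries they were 5 of 8 in WAT and 4 of 8 in BAT, and 6 and 8 without the library that stood apart. The comparisons share control libraries, so the values of a gene in them are not independent.

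From day 4 to day 8 some of the 8 genes rose and others fell in control cells of each depot. Of the 8 genes, 6 rose and 1 fell in WAT control cells, against 27.7% and 33.2% of all genes, and 5 rose and 2 fell in BAT control cells, against 28.7% and 40.4%. Without Gpihbp1, which entered the tested genes through the WAT day 8 control libraries, 5 of 7 rose and 1 fell in WAT, and 4 rose and 2 fell in BAT. Cd36 rose by 1.10 ± 0.09 (log2) in WAT and 1.27 ± 0.09 in BAT, Fabp4 by 1.17 ± 0.10 and 0.73 ± 0.10, Slc27a1 by 0.66 ± 0.09 and 0.41 ± 0.09, and Angptl4 by 0.77 ± 0.10 and 2.39 ± 0.10. Angptl4 in BAT was the largest of these, a rise of 5.45-fold in mean FPKM. Under quantile normalization the Fabp4 rise in BAT was 0.03 and was not called. In the fit of all 24 libraries neither the Slc27a1 rise in BAT (0.41, adjusted p = 0.127) nor the Lpl difference in WAT (-0.39, 0.247) was called. Both calls were kept when the library that stood apart was left out. Gpihbp1 rose by 1.38 ± 0.13 in WAT and 0.48 ± 0.13 in BAT. Lpl moved the other way in WAT (-0.40 ± 0.08, adjusted p = 0.000941), and in BAT its difference was -0.10 ± 0.08 (0.294). The fatty acid binding proteins parted in BAT, where Fabp5 fell (-0.63 ± 0.07, adjusted p = 6.25e-06) as Fabp4 rose. In WAT the Fabp5 rise of 0.19 ± 0.07 (0.0330) was not seen in replicate 3, with 75.2 FPKM on day 4 and 67.4 on day 8. Acsl1 fell in BAT control cells (-1.76 ± 0.09, adjusted p = 9.44e-09), while in WAT its difference was -0.15 ± 0.09 (0.171).

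**Figure D3:**
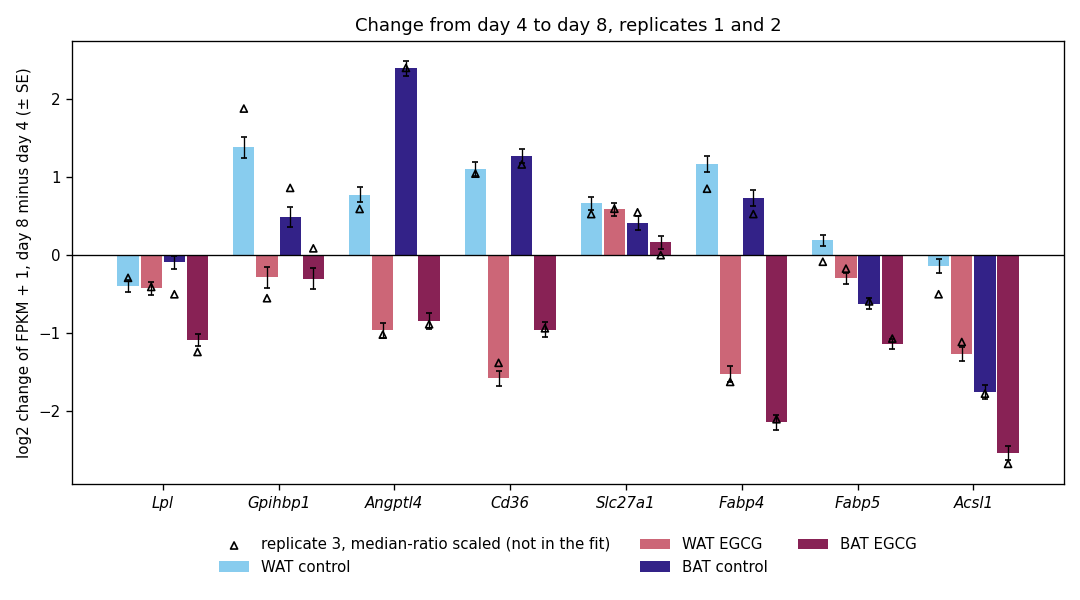
Change of each gene from day 4 to day 8 on the log2(FPKM + 1) scale in control and EGCG cells of both depots; bars are the fitted changes of replicates 1 and 2 with their SE, and triangles are replicate 3 after median-ratio scaling. Control bars of Angptl4, Cd36 and Fabp4 point up and EGCG bars of the same genes point down.

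With EGCG most of the 8 genes fell from day 4 to day 8, and Angptl4, Cd36 and Fabp4, which had risen in control cells, were among them in both depots. Of the 8 genes, 1 rose and 6 fell from day 4 to day 8 in WAT cells with EGCG, against 31.8% and 27.7% of all genes, and 0 rose and 6 fell in BAT cells, against 29.7% and 28.2%. The 1 that rose was Slc27a1 in WAT (0.58 ± 0.09, adjusted p = 0.000130). In BAT no gene of the 8 rose in limma at an unadjusted p under 0.05 either, and the values of Slc27a1 and Gpihbp1 were 0.16 ± 0.09 (adjusted p = 0.141) and -0.31 ± 0.13 (0.0680). Cd36 changed by -1.59 ± 0.09 in WAT and -0.96 ± 0.09 in BAT, Fabp4 by -1.53 ± 0.10 and -2.15 ± 0.10, and Acsl1 by -1.28 ± 0.09 and -2.55 ± 0.09. Lpl changed by -0.43 ± 0.08 in WAT and -1.09 ± 0.08 in BAT, and Angptl4 by -0.97 ± 0.10 and -0.85 ± 0.10. Day 4 cells were at the end of the induction medium and day 8 cells at the end of the differentiation medium, so day and medium cannot be told apart.

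Brown and white cells differed in these genes with and without EGCG. In control cells on day 4, 4 genes were higher in BAT (Cd36, Fabp4, Fabp5, Acsl1) and 3 lower (Lpl, Angptl4, Slc27a1), against 41.4% and 14.4% of all genes. In the fit of all 24 libraries this count of 7 was 4, and it was 7 again without the library that stood apart. The all-gene median of this contrast was 0.15, so relative to the typical gene Cd36 differed by 0.34. Acsl1 (1.39 ± 0.09), Fabp5 (1.38 ± 0.07) and Fabp4 (1.35 ± 0.10) differed most in favour of BAT, and Angptl4 (-0.92 ± 0.10) most in favour of WAT. On day 8 Angptl4 had turned: it was higher in BAT control cells by 0.69 ± 0.10 (adjusted p = 0.000109). Angptl4, Cd36, Fabp4 and Fabp5 were then called higher and Gpihbp1 and Slc27a1 lower, against 31.6% and 22.0% of genes. Gpihbp1 entered the tested genes only through the WAT day 8 control libraries, the higher group here. Without it, 4 of 7 were higher and 1 lower. Fabp4 was not called after quantile normalization (0.27, adjusted p = 0.177), and Fabp5 not in the fit of all 24 libraries (0.0625). Lpl (-0.17 ± 0.08, 0.0855) and Acsl1 (-0.22 ± 0.09, 0.0534) did not pass the test, but both were called lower with median-ratio scaling (adjusted p = 0.0350 and 0.0210). Acsl1 was also called after quantile normalization (-0.39, 0.00477), with the filter of FPKM 5 (0.0446) and without replicate 2 of WAT day 8 control (0.0239), and Lpl in the fit of both tables without the library that stood apart (0.00519).

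**Figure D4:**
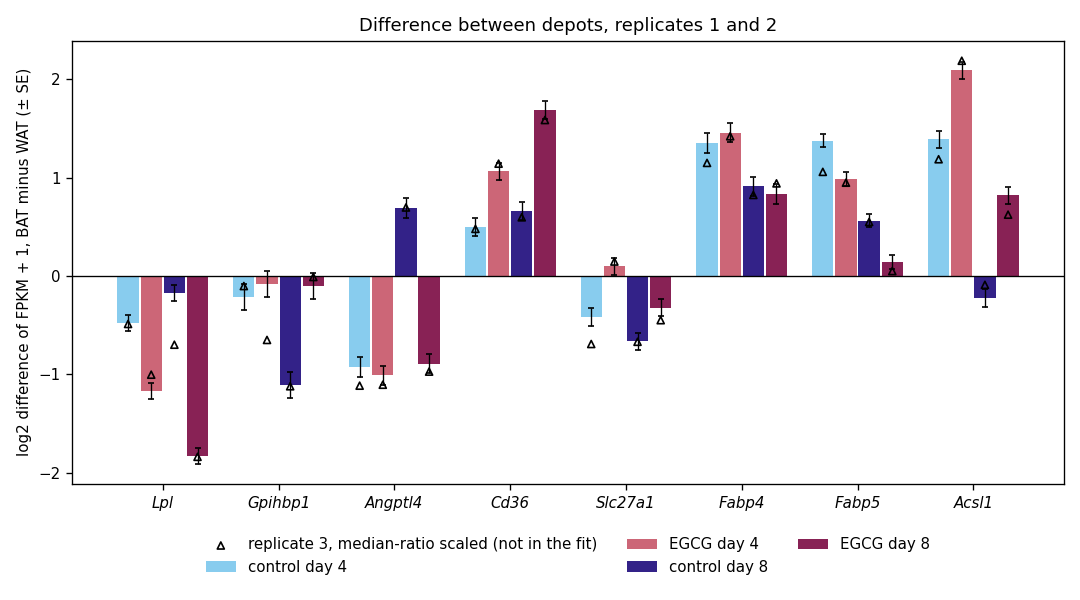
Difference of each gene between depots on the log2(FPKM + 1) scale, BAT minus WAT, in control and EGCG cells on day 4 and day 8; bars are the fitted differences of replicates 1 and 2 with their SE, and triangles are replicate 3 after median-ratio scaling. Lpl bars lie furthest below 0 with EGCG, and the Acsl1 bar of EGCG day 4 lies furthest above 0.

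Under EGCG, Lpl was lower in BAT than in WAT, with differences of -1.17 ± 0.08 on day 4 and -1.83 ± 0.08 on day 8. Cd36 was higher in BAT by 1.06 ± 0.09 on day 4 and 1.69 ± 0.09 on day 8, and Acsl1 by 2.09 ± 0.09 and 0.82 ± 0.09. Of the 8 genes, 4 were called higher in BAT and 2 lower on day 4, against 32.9% and 15.8% of genes, and 3 and 3 on day 8, against 24.4% and 14.0%. The lower call of Slc27a1 on day 8 (-0.32 ± 0.09, adjusted p = 0.0126) was lost without replicate 1 or 2 of WAT or replicate 1 of BAT (0.0556 to 0.0853).

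By mean level over replicates 1 and 2, the order of the groups differed between genes. Lpl was highest in WAT day 4 control (1605 FPKM) and then in WAT day 8 control and BAT day 4 control (1217 and 1155), whose libraries overlapped. Cd36 and Fabp4 were highest in BAT day 8 control (230 and 7546 FPKM) and lowest in WAT day 8 EGCG (5.34 and 125). Fabp5 and Acsl1 were highest in BAT day 4 control (157 and 344 FPKM), and Slc27a1 in WAT day 8 control (69.0 FPKM). Neighbours whose libraries overlapped were WAT day 4 control with BAT day 8 control for Slc27a1, BAT day 4 control with WAT day 8 control for Fabp4, and WAT day 4 with WAT day 8 control for Acsl1. The same held for WAT day 8 EGCG with BAT day 4 EGCG for Angptl4 and for BAT day 8 EGCG with WAT day 4 EGCG for Cd36.

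Plain ratios of genes within a library do not depend on its scaling, so ratios were taken over all 24 libraries. The log2 changes tested had 1 added to each FPKM. They are therefore not free of scaling and differ from those of the printed ratios. The Fabp4 to Fabp5 ratio was 53.1, 65.8 and 56.4 in WAT day 8 control and 12.2, 13.0 and 10.7 with EGCG, and 74.8, 75.0 and 68.0 in BAT day 8 control and 20.4, 20.1 and 19.9 with EGCG. On day 8 EGCG libraries thus lay far below the controls. On day 4 the means were close in WAT, at 29.8 ± 0.675 in control and 29.2 ± 0.907 with EGCG (SD, n = 3), and higher with EGCG in BAT, at 38.9 ± 0.166 against 29.8 ± 1.12. Over depots and days the mean log2 change of the ratio was -1.04 (exact permutation test within depot and day, two-sided, p = 0.00464, and 0.00464 adjusted over the 2 ratios tested). The change ran from -2.44 in WAT day 8 to 0.34 in BAT day 4, and within 1 depot and day the smallest exact p is 0.1. The level of the ratio depends on the transcript length used for Fabp5.

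The Angptl4 to Lpl ratio, inhibitor over enzyme, rose with EGCG on day 4. It was 0.0267, 0.0261 and 0.0327 in WAT day 4 control and 0.0916, 0.0673 and 0.111 with EGCG, and 0.0197, 0.0182 and 0.0207 in BAT day 4 control and 0.0915, 0.0812 and 0.101 with EGCG. Every EGCG library lay above every control library on that day. On day 8 the groups overlapped, with means of 0.0605 and 0.0592 in WAT and 0.127 and 0.108 in BAT (control and EGCG). With 1 added to each FPKM, the mean log2 change over depots and days was 0.92 (exact permutation test, two-sided, p = 0.00349, adjusted 0.00464). It was made of 1.63 and 2.21 on day 4 in WAT and BAT and of 0.01 and -0.15 on day 8. With replicates 1 and 2 alone it was 0.88 (exact p = 0.0509).

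**Figure D5:**
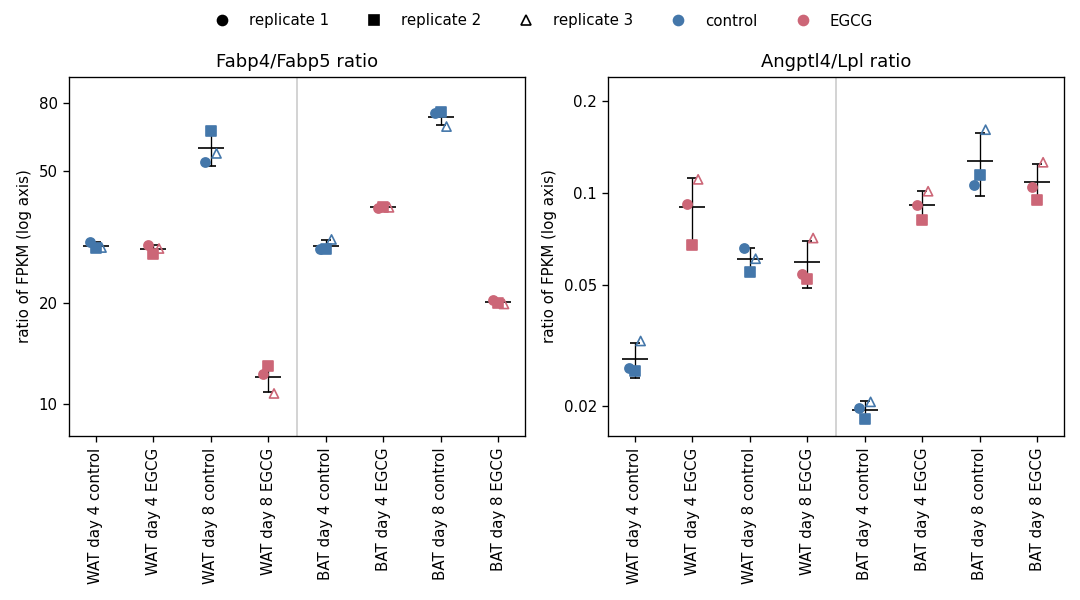
FPKM ratio of Fabp4 to Fabp5 (left) and of Angptl4 to Lpl (right) in each library, on log axes; bars are the mean of 3 libraries and lines the SD. The Fabp4 to Fabp5 ratio is lower with EGCG on day 8 in both depots, and the Angptl4 to Lpl ratio is higher with EGCG on day 4 in both.

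Other genes of the pathway were read from lists of relatives. Among 11 genes that act on the lipase, 8 were tested. Apoc1, an apolipoprotein of triglyceride-rich particles, fell with EGCG in both depots on both days, by -2.66 ± 0.17 and -5.17 ± 0.17 (log2) in WAT and -1.80 ± 0.17 and -5.85 ± 0.17 in BAT. In BAT day 8 it was at 133, 130 and 137 FPKM in control and 1.84, 0.854 and 1.90 with EGCG. Apoc2, the activator of the lipase, was lower with EGCG in all 4 comparisons (-0.46 to -1.20), at no more than 1.38 FPKM in replicates 1 and 2. In WAT day 4 these held 15 and 11 reads in control and 0 with EGCG. Apoc3 and Angptl8, both inhibitors of lipoprotein clearance, fell on day 8 (-2.90 and -1.24 in WAT, -4.76 and -2.70 in BAT), and Apoc3 was listed at 0 in replicates 1 and 2 of both EGCG groups of that day. Apoc2 passed the filter only through control libraries, and Apoc3 only through day 8 control libraries. Their changes are therefore given as description, also within the counts below. Furin, a protease that cleaves proteins of this family, rose in all 4 (0.22 to 0.53). The list had 2, 2, 1 and 2 genes higher and 3, 4, 2 and 5 lower in WAT day 4, WAT day 8, BAT day 4 and BAT day 8. Over all genes 34.4, 44.7, 27.9 and 46.5% were higher and 19.3, 18.9, 20.6 and 26.1% lower, so several of these counts lie near the share over all genes.

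The families of the uptake and activation genes did not move as one. Of the 8 other fatty acid binding protein genes only Fabp3, the heart-type form, was tested. It was at 0.367, 0.878 and 0.367 FPKM in WAT day 8 control and 6.47, 4.85 and 2.86 with EGCG, and at 0.366, 0.493 and 0.550 in BAT day 8 control and 9.44, 9.97 and 10.5 with EGCG. Fabp3 thus rose on day 8, by 2.04 ± 0.25 in WAT (adjusted p = 2.31e-05) and 2.91 ± 0.25 in BAT (6.72e-07), where Fabp4 and Fabp5 fell. In WAT day 4 it was lower (-0.78 ± 0.25, 0.0225). Of 5 other FATP genes 3 were tested, and Slc27a3 rose in all 4 comparisons, from 4.38, 4.10 and 5.25 FPKM to 22.9, 20.0 and 26.0 in WAT day 4 (2.10 ± 0.08) and by 1.23 to 1.45 in the others. Slc27a4 differed by no more than 0.06 in either direction, with adjusted p of at least 0.423. The remaining tested FATP gene was called lower on day 4 and higher on day 8 in both depots. In WAT day 4, WAT day 8, BAT day 4 and BAT day 8, this family had 1, 2, 1 and 2 genes higher and 1, 0, 1 and 0 lower. Over all genes 34.4, 44.7, 27.9 and 46.5% were higher and 19.3, 18.9, 20.6 and 26.1% lower.

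Of 6 other acyl-CoA synthetases 4 were tested, and none was called lower in any of the 4 comparisons. Over all genes 18.9 to 26.1% were called lower, so 0 of 4 genes lies near that share. The genes called higher numbered 1, 3, 2 and 2 in WAT day 4, WAT day 8, BAT day 4 and BAT day 8. Over all genes 34.4, 44.7, 27.9 and 46.5% were. Acsl4, which prefers arachidonate, rose in all 4 comparisons. Its change was 1.04 ± 0.11 and 1.18 ± 0.11 (log2) in WAT and 0.55 ± 0.11 and 0.46 ± 0.11 in BAT on day 4 and day 8. In WAT day 4 it was at 19.4, 18.5 and 16.6 FPKM in control and 43.3, 37.3 and 39.3 with EGCG. Acsl5 was called in BAT day 4 alone (0.20 ± 0.06, adjusted p = 0.0124). Cav1, a coat protein of caveolae where Cd36 resides, fell in all 4 (-1.15 to -2.32), as did Dbi, the acyl-CoA binding protein (-0.70 to -1.87). They belong to a list of 5 uptake partners, with Got2, Zdhhc4 and Zdhhc5. In the same order of comparisons, this list had 0, 2, 0 and 2 genes called higher and 2 called lower in each. Of 4 lipoprotein receptors, Scarb1 fell in all 4 (-0.75 to -1.29) and Lrp1 rose in all 4 (0.31 to 1.08). The receptors had 3, 2, 1 and 2 called higher and 1, 1, 1 and 2 lower. Several counts of both lists lie near the shares over all genes given above.

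The genes whose pattern over the 16 libraries of replicates 1 and 2 was most like each member were taken by Pearson's r of log2(FPKM + 1) among 8697 genes. They were Agt (0.990) and Cdo1 (0.988) for Cd36, Dgat2 (0.990) and G0s2 (0.988) for Fabp4, and Slc25a10 (0.991) and Dgat1 (0.984) for Fabp5. For Acsl1 they were mt-Nd1 (0.985) and Arxes1 (0.982), and for Slc27a1 Obsl1 (0.971) and Iigp1 (0.960). For Lpl they were Adh1 (0.964) and Luc7l2 (0.959), for Angptl4 Tacc1 and Selenbp1 (both 0.963), and for Gpihbp1 Ikbke (0.954) and Mup17 (0.924). Among the members, r was highest for Cd36 with Fabp4 (0.977) and Fabp5 with Acsl1 (0.965), and lowest for Gpihbp1 with Fabp5 (0.296). The points share libraries and 8 group means, so these values describe likeness only.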

How the data were processed

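Gene expression was measured by RNA sequencing in 24 libraries. The authors deposited FPKM values for 37310 genes in 2 tables, replicates 1 and 2 in the first and replicate 3 in the second. The submitters' processing notes name FastQC 0.11.9, HISAT2 2.2.0, HTSeq 0.11 and the mm9 build without their roles. The length behind every FPKM value was that of the gene's longest GENCODE transcript, and FPKM times length and depth gave whole reads for 100% of values (tolerance 0.01). Strand handling in counting is not given in the sources used here.

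Replicates 1 and 2 were tested with limma 3.58.1 (R 4.3.3) on log2(FPKM + 1), with 1 mean for each of the 8 groups, a shared trended spread, and Benjamini-Hochberg adjustment over 14095 genes with FPKM of at least 1 in at least 2 of 16 libraries. Calls were made below an adjusted p of 0.05, two-sided. Fold changes on this scale understate those of low genes. Changes given as folds are ratios of mean FPKM over replicates 1 and 2, without the added 1. Differences of EGCG effects were interaction contrasts (BAT minus WAT, day 8 minus day 4). Replicate 3 was shown as deposited and after median-ratio scaling, a choice made after seeing the data. Ratios were tested on the log2 scale with 1 added to each FPKM. The test was an exact permutation of treatment within depot and day (160000 arrangements, smallest p = 1.25e-05) with numpy 2.4.6. A floor of 3 reads was used where a group was at 0, which covers counting error only. In simulated counts for EGCG against control in WAT day 4 (13137 genes), 100% of 199 changed genes were called with the right sign, and 12 unchanged genes were called. The changed genes were well counted, their changes exceeded the smaller ones called here, and all other genes were left unchanged. The simulation therefore does not cover small changes, genes of few reads or shifts of most genes.

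Replicate numbers are shared between groups in the labels. Deviations of libraries with the same number correlated at -0.17 to 0.12 within the first table, so numbers 1 and 2 were not treated as pairs. Across both tables the values were 0.749 to 0.974, where number 3 marks the separate table.

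The 8 genes, the related genes and the marker lists were chosen with earlier results of these data known. All 8 were described, relatives were named by family or by a direct role on the lipase, and likeness named the 2 genes of highest r per member with a mean FPKM of at least 5. Alternatives were a pseudocount of 0.1, no filter or one of FPKM 5, median-ratio and quantile scaling, the replicate block, both tables, and leaving out each library.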

Additional observations from a re-analysis of the deposited data

Results flagged for a closer look

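The effect of EGCG differed between depots or days in 25 tests of the 8 genes, as log2 differences from limma interaction contrasts with adjusted p. Each test is of the difference of 2 effects, BAT minus WAT or day 8 minus day 4, and the tests share libraries. The depot difference on day 4 was called higher for 3 genes and lower for 2, against 12.0% and 16.1% of all genes. On day 8 the counts were 4 and 3, against 19.4% and 19.7%. For the day difference they were 0 and 6 in WAT, against 29.7% and 19.7%. In BAT they were 0 and 7, against 34.7% and 20.6%. In the fit of all 24 libraries 0 of the depot differences on day 4 were called, and 5 without the library that stood apart.

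The lipase group differed as follows. For Lpl the depot difference was -0.69 on day 4 (adjusted p = 0.000966) and -1.66 on day 8 (1.25e-06), and the day difference in BAT was -0.997 (1.83e-05). For Gpihbp1 the depot difference on day 8 was 1.01 (0.00143), and the day differences were -1.67 in WAT (3.10e-05) and -0.79 in BAT (0.00382). The first 2 rest on the WAT day 8 control group, through which the gene entered the tested set, and the depot difference was not called with a pseudocount of 0.1 (0.145). For Angptl4 the depot difference on day 8 was -1.58 (7.90e-06), and the day differences were -1.74 in WAT (2.75e-06) and -3.24 in BAT (1.98e-08).

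The uptake genes differed too. For Cd36 the depot differences were 0.57 on day 4 (0.00722) and 1.03 on day 8 (9.18e-05), and the day differences -2.69 in WAT (6.61e-08) and -2.23 in BAT (1.38e-07). For Slc27a1 the depot differences were 0.52 on day 4 (0.00978) and 0.34 on day 8 (0.0466). That of day 8 was not called without any 1 library of its groups (0.0538 to 0.137).

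For Fabp4 the day differences were -2.70 in WAT (1.12e-07) and -2.88 in BAT (4.37e-08). For Fabp5 the depot differences were -0.39 on day 4 (0.0113) and -0.42 on day 8 (0.00505), and the day differences -0.49 in WAT (0.00150) and -0.52 in BAT (0.000783). For Acsl1 the depot differences were 0.70 on day 4 (0.00192) and 1.04 on day 8 (6.97e-05), and the day differences -1.13 in WAT (2.77e-05) and -0.79 in BAT (0.000252).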

How the results depend on the processing

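Of 128 gene and contrast values, 107 were called. In the 16 contrasts 3959 to 10231 of the 14095 tested genes were called. Of the 107, 27 lost the call under at least 1 alternative, while 8 of the uncalled values became called under at least 1. These 8 were Gpihbp1 with EGCG in BAT day 4 and from day 4 to day 8 with EGCG in WAT and BAT, Lpl and Acsl1 in BAT against WAT in day 8 control, Lpl and Acsl1 from day 4 to day 8 in BAT and WAT control respectively, and the Slc27a1 day difference in BAT. Of the 30 EGCG calls, those of Angptl4 on day 4 were lost under some alternatives and the other 28 were kept under all that were run. The replicate block on replicates 1 and 2 ended 1 call, that of the Slc27a1 depot difference on day 8 (adjusted p = 0.0557), and no other. Fitting both tables, with the replicate number as a block, ended 22 calls, and 1 when replicate 3 of WAT day 8 EGCG was left out. The counts of the 8 genes called in that block fit were 4 for BAT against WAT in day 4 control, 0 for the depot difference on day 4 and 4 for the day difference in BAT, against 7, 5 and 7 as reported. Over all genes the same fit called 2963, 3637, 2537 and 6526 for EGCG in WAT day 4, WAT day 8, BAT day 4 and BAT day 8 (7567, 8962, 6838 and 10231 as reported). It called 3943, 5456, 5454 and 3476 for day 8 against day 4 in WAT control, BAT control, WAT EGCG and BAT EGCG (8591, 9751, 8383 and 8171). It called 2395, 2722 and 2101 for BAT against WAT in day 4 control, day 8 control and day 4 EGCG (7867, 7555 and 6865), 586 and 1897 for the depot differences on day 4 and day 8 (3959 and 5520), and 2261 and 2205 for the day differences in WAT and BAT (6962 and 7803). The split turned in this fit for EGCG in WAT day 8, with 809 higher and 2828 lower (6302 and 2660), for day 8 against day 4 in WAT EGCG, with 1004 and 4450 (4476 and 3907), for the day differences, with 254 and 2007 in WAT (4187 and 2775) and 843 and 1362 in BAT (4897 and 2906), for the depot differences, with 329 and 257 on day 4 (1689 and 2270) and 1493 and 404 on day 8 (2738 and 2782), and for day 8 against day 4 in WAT control, with 2204 and 1739 (3907 and 4684), and BAT EGCG, with 1725 and 1751 (4191 and 3980). For BAT against WAT in day 8 EGCG it was 4862 and 371 (3441 and 1972).

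Directions turned as follows, for values not called as reported unless named. With median-ratio scaling, Lpl from day 4 to day 8 in BAT control was 0.0784 and the Angptl4 depot difference on day 4 was 0.0041. With quantile normalization, Slc27a1 in BAT against WAT in day 4 EGCG was -0.0205, the Fabp4 depot difference on day 8 was 0.62 and the Lpl day difference in WAT was 0.19. With both tables, Slc27a1 in BAT against WAT in day 8 EGCG, called as reported, was 0.0271, the Gpihbp1 depot difference on day 4 was -0.11 and the Fabp4 depot difference on day 8 was 0.44. Without replicate 3 of WAT day 8 EGCG in that fit, Gpihbp1 remained at -0.11, and the day differences in WAT were 0.0102 for Lpl and 0.0075 for Slc27a1. Leaving out 1 library gave -0.18 to 0.0275 for the Fabp4 and -0.21 to 0.0448 for the Angptl4 depot difference (day 8 and day 4), -0.0053 to 0.22 for Fabp4 on day 4, -0.12 to 0.0595 and -0.19 to 0.0330 for the Lpl and Slc27a1 day differences in WAT, and -0.20 to 0 and -0.16 to 0.00098 for Gpihbp1 in BAT against WAT with EGCG on day 8 and day 4. The Angptl4 to Lpl ratio change was 0.88 with replicates 1 and 2 alone (exact p = 0.0509) and 0.88 to 0.98 without 1 replicate number, and the Fabp4 to Fabp5 change -1.07 to -1.02. The cause was not tested in any of these.

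Median-ratio scaling also moved the split of all genes called higher and lower to 3408 and 3324 for BAT against WAT in day 4 control (5842 and 2025 as reported), 3526 and 2912 in day 4 EGCG (4644 and 2221), 5207 and 4214 for day 8 against day 4 in BAT control (4050 and 5701), 3323 and 3770 for the day difference in BAT (4897 and 2906) and 2262 and 1483 for the depot difference on day 4 (1689 and 2270). The 2 libraries per group in the tested table limit the precision, and Gpihbp1, with 0 to 79 reads, is limited by depth.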
